A study of Mus musculus with 16 samples.

Results

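The 10 genes described here encode proteins that take lipid into cells or carry it inside them, and they were picked by gene symbol from the 53714 genes counted. They comprise the lipoprotein receptors Vldlr, Lrp1 and Scarb1, the fatty acid translocase Cd36, the lipases Lpl and Lipc, and the fatty-acid-binding proteins Fabp1, Fabp2, Fabp4 and Fabp5. Each matched 1 row of the count table, and all 10 had enough reads to enter the tests. Polyadenylated RNA had been sequenced from mouse livers in a design that crossed hepatocyte loss of Slc25a47, a mitochondrial carrier gene, with feeding state. The groups were fasted KO and fasted WT livers, taken after an overnight fast, and fed KO and fed WT livers, taken on chow, with 4 libraries in each. KO stands for the genotype Slc25a47hep-/- and WT for Slc25a47hep+/+. All 16 mice were males of 9 weeks on the C57BL/6 Slc25a47tm1c(EUCOMM)Hmgu background, a line name that the WT mice share. The labels name no Cre driver, and nothing in them says more of how the libraries of a group relate than that they are separate samples, so p-values measure the spread between these samples.

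Lipoprotein triglyceride is cut by lipoprotein lipase on capillary walls, and the freed fatty acids enter cells partly through CD36, while whole particles are bound by endocytic receptors on the cell surface. Healthy adult mouse hepatocytes are known for little Vldlr and Lpl, and for abundant Fabp1, the main fatty acid carrier of their cytosol. Cd36 and Fabp1 are known target genes of the peroxisome proliferator-activated receptors (PPARs), and Vldlr is known to be induced through ATF4 in stress of the endoplasmic reticulum.

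Before the levels, the promoter stretches that match the elements of these factors are shown, since Vldlr, Cd36 and Fabp1 are known to respond to them. RefSeq promoter entries (GRCm38.p6) were found for 6 of the 10 genes, with 8 windows of 250 bases before a start. Both strands were searched for the PPAR element, 2 copies of AGGTCA with 1 base of any kind between them, with up to 2 mismatches and for the ATF4 composite element TGATGNAA without mismatch. Of all 32851 promoters, 3.24% held the first and 3.45% the second. Matches lay in 4 windows of 4 genes, 1 in each. The lines give each gene's own strand, with the matching bases in capitals, and all 4 elements read on the opposite strand.
Vldlr, ATF4 composite element, chr19:27216809-27216838, forward strand: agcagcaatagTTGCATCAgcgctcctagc
Cd36, PPAR element, chr5:17835938-17835967, reverse strand: tggttctcTGGCCTCTGACTTacttggatg
Fabp1, PPAR element, chr6:71199804-71199833, forward strand: acaatcacTGACCTATGGCCTatatctgag
Lipc, PPAR element, chr9:70934809-70934838, reverse strand: attgattcTGAACTATGAGCTtggctcaag
The Fabp1 match had 1 mismatch and lay 67 bases before the start, and the Cd36 and Lipc matches had 2 mismatches at 63 and 22 bases. The Vldlr match lay 200 bases before its start. All 4 stretches overlap the annotated span of their own gene, and those of Fabp1 and Vldlr overlap an exon. All 4 stretches lie before starts inside these spans, and that of Fabp1 reaches across the outer start of its gene. The windows before the outer starts of Vldlr and Lipc held no match. A match is a resemblance of letters and shows no binding.

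Each library held 19.6 to 27.4 M reads assigned to genes. Slc25a47 itself averaged 261 ± 77.2 CPM (reads per M reads assigned to genes, with TMM-scaled library sizes; mean ± SD of 4 libraries) in fasted KO livers, 949.5 ± 129 CPM in fasted WT, 126 ± 32.2 CPM in fed KO and 637 ± 154 CPM in fed WT. Its log2 fold change of KO over WT was -1.86 ± 0.25 (SE) fasted and -2.34 ± 0.25 fed, with no overlap, and reads remained in every KO library. The summed level of 10 hepatocyte markers was 115615 to 133837 CPM in fasted KO, 98192 to 142242 CPM in fasted WT, 88367 to 122395 CPM in fed KO and 126109 to 131089 CPM in fed WT livers. All fed KO sums lay under all fed WT sums (exact two-sided permutation p = 0.0286; 0.0879 after adjustment over 40 marker comparisons), and the fasted sums overlapped. By the edgeR test 4 of these markers were lower in KO in the fasted state and 3 in the fed state. Of all genes tested, 14.5% were lower fasted and 16.9% fed. The part of these markers in the results below was not tested. The libraries of fasted WT replicates 2 and 4 stood apart by pancreatic acinar transcripts, with a summed level of 1811 and 499.98 CPM over 14 genes, against 4.86 to 78.9 CPM in the fasted KO libraries. Where leaving them out ends or makes a call of the 10 genes, the value without them is given. Fasted WT replicate 1 stood apart by muscle transcripts, with a summed level of 31.7 CPM over 5 genes, against at most 0.959 CPM in any other library. The part of these muscle transcripts in the results below was not tested. Scaling by library totals alone would move the median log2 fold change of all genes from -0.0083 to 0.22 in fed KO over fed WT and from 0.011 to 0.20 in fasted KO over fasted WT, and directions that it turns are named.

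The fed genotype comparison asked how loss of Slc25a47 alters liver transcripts on chow. By edgeR's quasi-likelihood test with Benjamini-Hochberg adjustment over 13905 genes, 3 of the 10 genes were higher in fed KO than in fed WT livers (Vldlr, Cd36 and Lpl) and 5 were lower (Fabp1, Fabp2, Fabp5, Lipc and Lrp1). Of all genes tested, 30.9% were called, 14.0% higher and 16.9% lower. After the fast the same 3 genes were higher in KO livers, and 3 were lower (Fabp2, Lipc and Fabp4), against 28.3% of all genes, 13.8% higher and 14.5% lower. The groups did not overlap for 6 of the 10 genes in the fasted and for 7 in the fed genotype comparison, against 29.5% and 28.4% of all genes. The directions were 3 higher and 3 lower fasted, where all genes had 14.2% higher and 15.3% lower, and 3 higher and 4 lower fed, where all genes had 12.9% higher and 15.4% lower. The median absolute log2 fold change of the 10 genes was 0.45 fasted and 1.07 fed, against 0.22 and 0.24 for all genes. The 10 genes were chosen with earlier results of these data known, so these and later comparisons with all genes are a description and no test. All genotype calls among the 4 binding proteins were lower in KO, while receptors and lipases held calls in both directions.

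**Figure D1:**
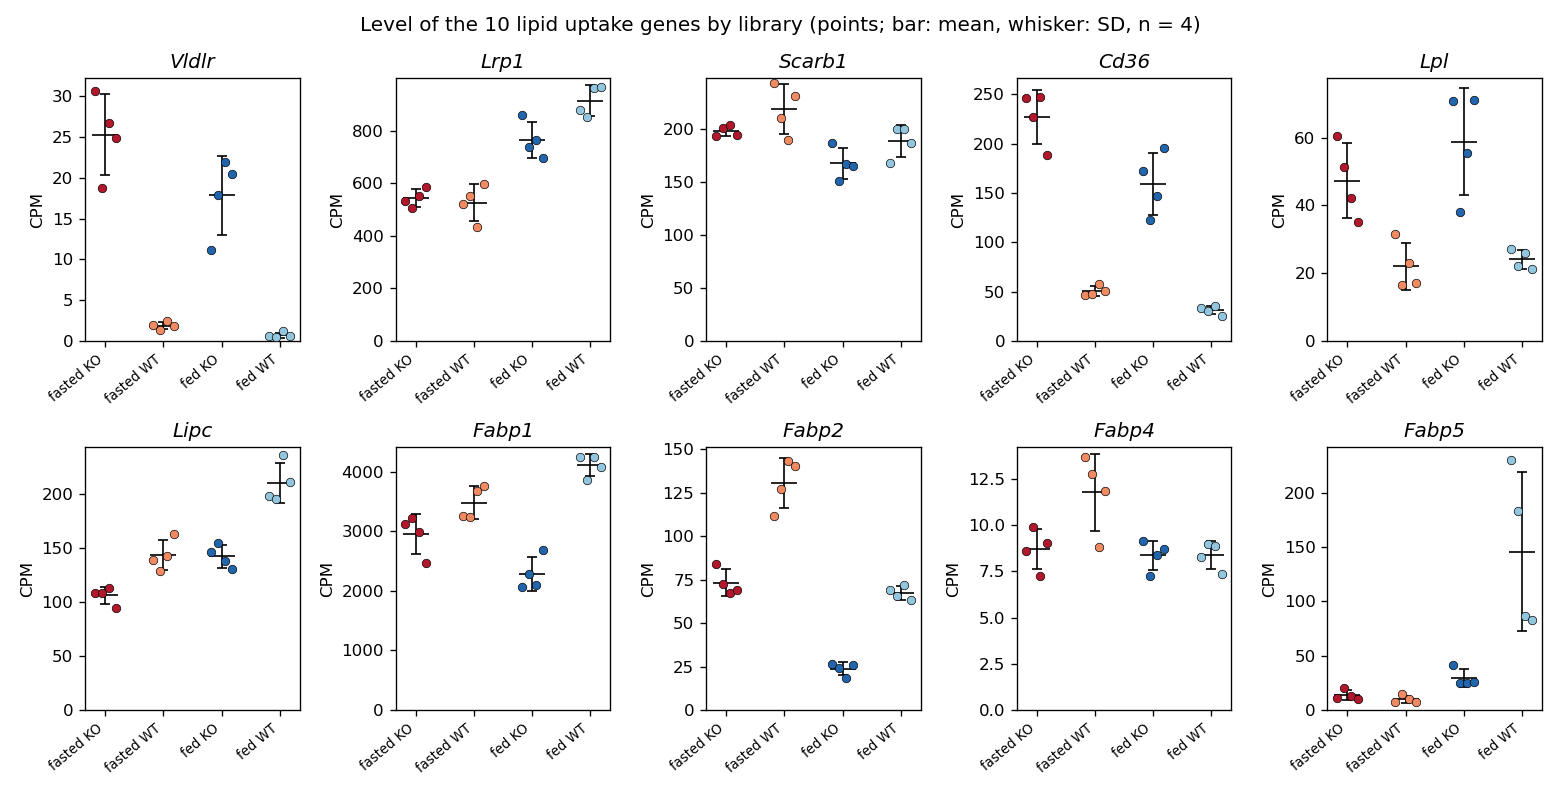
Level of each of the 10 genes in CPM (linear axes from 0) in the 4 libraries of fasted KO, fasted WT, fed KO and fed WT livers; points are libraries, bars means and whiskers SD. Vldlr, Cd36 and Lpl lie higher in both KO groups than in the WT groups, and Fabp5 is high in fed WT libraries, at 83.1 to 230.7 CPM.

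Vldlr (ENSMUSG00000024924; GRCm38 chr19:27216484-27254231, forward strand), the receptor for very-low-density lipoprotein, was nearly silent in WT liver and readily counted in KO liver. After the fast it stood at 30.7, 18.8, 26.7 and 24.9 CPM in KO livers and 1.91, 1.29, 2.41 and 1.86 CPM in WT livers. In fed livers it stood at 11.1, 17.9, 21.998 and 20.5 CPM in KO and 0.660, 0.480, 1.16 and 0.588 CPM in WT. The lowest KO library, fed KO replicate 1, was over the highest WT library, fasted WT replicate 3, and fed WT libraries held 12 to 25 reads each. The log2 fold change of KO over WT was 3.74 ± 0.25 (SE; adjusted p = 6.29e-08) fasted and 4.63 ± 0.29 (adjusted p = 1.75e-08) fed. These effects differed by -0.89 ± 0.40 (adjusted p = 0.276; 95% interval -1.77 to -0.0074, not adjusted, as are those below), which missed the adjusted threshold.

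The fast itself raised Vldlr in WT livers, by 1.39 ± 0.35 on the log2 scale (adjusted p = 0.00539), with all fasted WT over all fed WT libraries. In KO livers the value of 0.50 ± 0.20 for fasted over fed did not pass (adjusted p = 0.0612), and its groups overlapped. That value did pass without fasted KO replicate 2 (adjusted p = 0.0261), without fed KO replicate 3 (adjusted p = 0.038) or with the replicate number as a block (adjusted p = 0.0346). The 4 groups thus ran, from high to low, fasted KO, fed KO, fasted WT and fed WT, and only the 2 KO groups overlapped.

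Lrp1 (ENSMUSG00000040249; chr10:127538161-127621148, reverse strand), a large endocytic receptor for chylomicron remnants, was lower after the fast in both genotypes. Fasted livers held 532, 507, 551 and 584 CPM in KO and 521, 549.6, 432 and 598 CPM in WT. Fed livers held 858, 738, 765 and 695 CPM in KO and 879, 851, 960.5 and 965 CPM in WT. Every fasted library lay under every fed library of its genotype, and the genotypes overlapped in both states. Fasting lowered Lrp1, with a log2 fold change of -0.49 ± 0.09 in KO (adjusted p = 0.000411) and -0.80 ± 0.09 in WT livers (adjusted p = 2.69e-06). The genotype value was 0.05 ± 0.09 fasted (adjusted p = 0.738), with a 95% interval of -0.16 to 0.25, and it turned to -0.03 without fasted WT replicate 3. In the fed state it was -0.26 ± 0.09 (adjusted p = 0.0437), a call that was lost in 6 of the 8 refits that left out 1 library (fed KO replicates 2, 3 and 4, fed WT replicates 1, 3 and 4; adjusted p up to 0.122). It was also lost with the replicate block (adjusted p = 0.0531), with the 8 fed libraries alone (adjusted p = 0.0533) and with library totals, at -0.03 (adjusted p = 0.823).

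Scarb1 (ENSMUSG00000037936; chr5:125277087-125341094, reverse strand), which encodes the receptor SR-BI that takes cholesteryl ester from high-density lipoprotein, kept the narrowest range of the 10 genes. Its libraries read 193, 201, 203 and 194 CPM in fasted KO, 243, 210.0, 189 and 231 CPM in fasted WT, 187, 151, 167 and 165 CPM in fed KO and 168, 199.6, 199.8 and 187 CPM in fed WT. KO and WT overlapped in both states. The genotype value was -0.14 ± 0.08 fasted (adjusted p = 0.224; 95% interval -0.32 to 0.04) and -0.17 ± 0.08 fed (adjusted p = 0.127; 95% interval -0.35 to 0.01), and with library totals both turned to positive values, 0.05 and 0.05. Fasted KO exceeded fed KO livers by 0.24 ± 0.08 (adjusted p = 0.0265), but the call was lost with library totals and in 5 of the 8 refits without 1 library (fasted KO replicates 2 and 3, fed KO replicates 2, 3 and 4; adjusted p up to 0.0846). The WT value of 0.21 ± 0.08 missed the threshold (adjusted p = 0.0583). It passed without fasted WT replicate 3 (adjusted p = 0.0187), with DESeq2 size factors (adjusted p = 0.042) and with the DESeq2 Wald test (adjusted p = 0.0395).

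Cd36 (ENSMUSG00000002944; chr5:17781690-17888801, reverse strand), the fatty acid translocase whose promoter stretch is printed above, rose with both KO and the fast. Fasted livers read 246, 227, 248 and 188 CPM in KO and 46.97, 47.8, 57.6 and 51.1 CPM in WT. Fed livers read 172, 122, 147 and 196 CPM in KO and 33.4, 30.7, 35.01 and 25.5 CPM in WT. Each KO library was at least 122 CPM and no WT library passed 57.6 CPM. KO exceeded WT by a log2 fold change of 2.16 ± 0.14 (adjusted p = 1.21e-08) fasted and 2.35 ± 0.14 (adjusted p = 4.82e-09) fed, and the effects differed by -0.19 ± 0.19 (adjusted p = 0.659; 95% interval -0.60 to 0.21). The fast added 0.51 ± 0.13 in KO (adjusted p = 0.00449), where the groups overlapped, and 0.71 ± 0.13 in WT livers (adjusted p = 0.000594), where they did not.

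Lpl (ENSMUSG00000015568; chr8:68880491-68907448, forward strand), lipoprotein lipase, was higher in KO livers in both feeding states. Its fasted libraries read 60.5, 51.4, 42.3 and 35.2 CPM in KO and 31.5, 16.5, 22.9 and 17.002 CPM in WT, and its fed libraries 70.9, 38.1, 55.6 and 71.04 CPM in KO and 27.1, 22.2, 25.97 and 21.1 CPM in WT. KO and WT libraries did not overlap in either state, and the lowest fed KO library was replicate 2. KO exceeded WT by 1.10 ± 0.24 (adjusted p = 0.00391) fasted and 1.29 ± 0.24 (adjusted p = 0.00136) fed. Without fasted WT replicates 2 and 4, the 2 lowest Lpl libraries of that group, the fasted value was 0.80 and no longer passed (adjusted p = 0.0525). That fit kept fasted WT replicate 1, the highest Lpl library of the group and the one with muscle transcripts. This library also held the highest levels of the adipocyte markers Adipoq, Cfd and Plin1, whose part in the Lpl result was not tested. The fast gave -0.31 ± 0.23 in KO (adjusted p = 0.308; 95% interval -0.82 to 0.20) and -0.13 ± 0.25 in WT livers (adjusted p = 0.726; 95% interval -0.67 to 0.40). The WT value turned to 0.17 without the 2 pancreatic libraries.

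Lpl is made in macrophages and other non-parenchymal cells too, so markers of these cells are given beside it. The summed level of 10 stellate cell markers was 599 to 667 CPM in fasted KO, 463 to 511 CPM in fasted WT, 644 to 716 CPM in fed KO and 434 to 526 CPM in fed WT, with no overlap between genotypes (exact two-sided permutation p = 0.0286 in each state, the smallest possible with 4 libraries a group; 0.0879 after adjustment over 40 marker comparisons). Of the 10 markers, 5 were higher fasted and 8 fed in KO livers by the edgeR test. Of all genes tested, 13.8% were higher fasted and 14.0% fed. For 12 macrophage markers the sums overlapped, at 404 to 615 CPM in fasted KO, 351 to 556 CPM in fasted WT, 494 to 592 CPM in fed KO and 369.6 to 596 CPM in fed WT (exact permutation p = 0.286 fasted and 0.229 fed). Of these 12, 1 was higher in KO in each state, Cd68, by 0.52 ± 0.15 fasted (adjusted p = 0.0168) and 0.55 ± 0.15 fed (adjusted p = 0.00949). Marco read 14.8 to 18.1 CPM in fasted KO and 6.34 to 11.1 CPM in fasted WT livers without overlap, at 1.01 ± 0.38 (adjusted p = 0.06). None of these markers was at 0 in all libraries. Their part in the Lpl result was not tested, and in whole liver fewer or more cells of a type cannot be told apart from less or more RNA per cell.

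Lipc (ENSMUSG00000032207; chr9:70798128-70952226, reverse strand), hepatic lipase, was lower in KO livers and lower after the fast. Fasted livers held 108, 108, 113 and 94.3 CPM in KO and 139, 129, 143 and 163 CPM in WT. Fed livers held 146, 155, 138 and 130.2 CPM in KO and 198, 195, 236 and 211 CPM in WT. All KO libraries lay under all WT libraries of the same state. The log2 fold change of KO over WT was -0.44 ± 0.08 (adjusted p = 0.000776) fasted and -0.56 ± 0.08 (adjusted p = 7.52e-05) fed. That of fasted over fed was -0.43 ± 0.08 in KO (adjusted p = 0.00055) and -0.55 ± 0.08 in WT livers (adjusted p = 5.17e-05). Fed KO and fasted WT libraries overlapped, with 130.2 to 154.9 CPM in fed KO and 128.8 to 162.5 CPM in fasted WT livers.

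**Figure D2:**
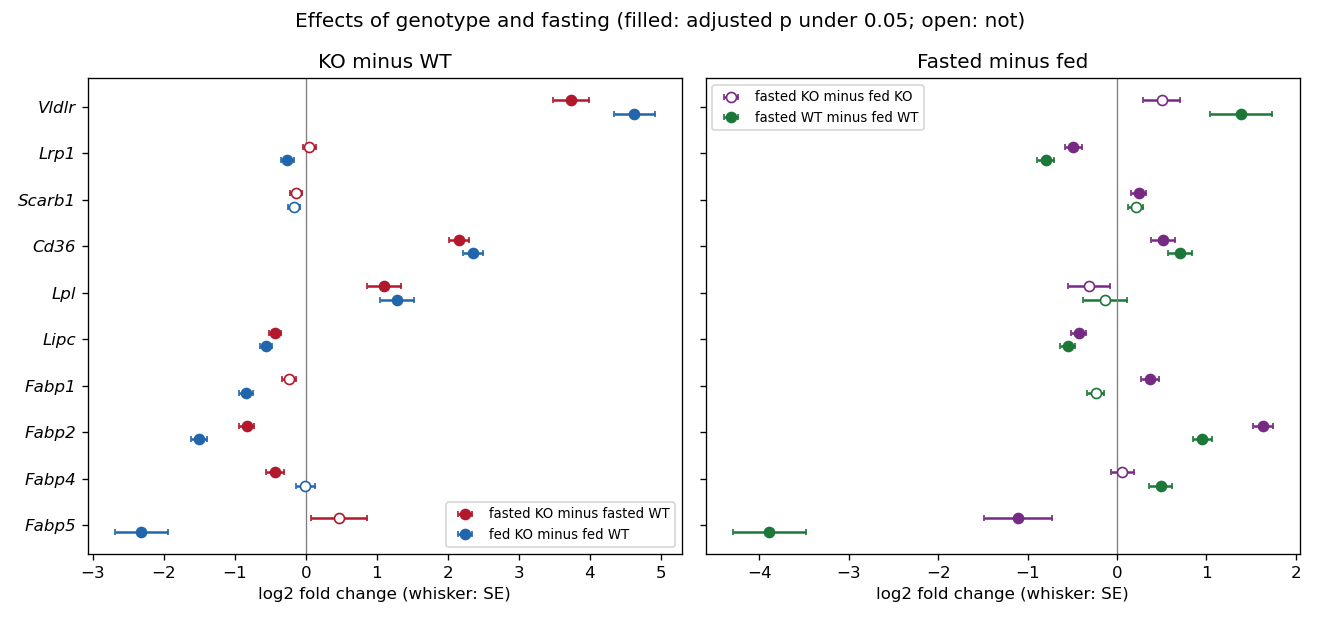
Log2 fold changes (points; whiskers are SE) of the 10 genes for KO minus WT in fasted and fed livers (left) and for fasted minus fed in KO and WT livers (right); filled points passed an adjusted p of 0.05. Vldlr stands farthest to the right among the genotype effects, at 3.74 fasted and 4.63 fed, and Fabp5 farthest to the left in the fed genotype effect, at -2.32, and in the WT fasting effect, at -3.89.

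Fabp1 (ENSMUSG00000054422; chr6:71199827-71205023, forward strand), the liver fatty-acid-binding protein, was the most abundant of the 10 genes per length in all 4 groups. Fasted livers held 3130.1, 3227, 2981 and 2468 CPM in KO and 3255, 3238, 3681 and 3755 CPM in WT. Fed livers held 2064, 2288, 2097 and 2684 CPM in KO and 4252, 3857, 4245 and 4084 CPM in WT. KO libraries lay under WT libraries in both states, by a wide gap in fed livers and by a narrow one in fasted livers. As shares of gene reads, without TMM, the fasted groups overlapped, at 0.263% to 0.337% in KO and 0.295% to 0.346% in WT livers. The fed KO value was -0.85 ± 0.10 (adjusted p = 4.72e-06), while the fasted one of -0.24 ± 0.10 did not pass (adjusted p = 0.0764) except with the DESeq2 Wald test (adjusted p = 0.0411). The difference of these effects, fasted minus fed, was 0.61 ± 0.14 (adjusted p = 0.0337). That call was lost in 10 of the 16 refits without 1 library (all but those without fasted KO replicate 4, fasted WT replicates 3 and 4, fed KO replicates 2 and 4 and fed WT replicate 2), with the replicate block (adjusted p = 0.052) and without the pancreatic libraries (adjusted p = 0.0818).

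The same difference, with the same limits, is that of the effect of the fast between genotypes. Fasted KO exceeded fed KO livers by 0.37 ± 0.10 (adjusted p = 0.00537), with overlap of the groups. In WT livers the value was -0.24 ± 0.10 (adjusted p = 0.067), with all fasted WT libraries under all fed WT libraries. It passed with library totals (adjusted p = 0.0166) and without a filter on low counts (adjusted p = 0.0367). Fabp1 alone took 0.307% of gene reads in fasted KO, 0.319% in fasted WT, 0.251% in fed KO and 0.389% in fed WT livers.

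Fabp2 (ENSMUSG00000023057; chr3:122895072-122899506, forward strand), known as the intestinal fatty-acid-binding protein, was present in every library. Fasted livers held 84.3, 72.5, 67.6 and 69.1 CPM in KO and 112, 127, 143 and 140.3 CPM in WT. Fed livers held 26.5, 24.1, 18.3 and 26.1 CPM in KO and 69.2, 65.5, 71.8 and 63.2 CPM in WT. Fed KO libraries were the lowest and fasted WT libraries the highest, and fasted KO overlapped with fed WT. KO was lower, with a log2 fold change of -0.83 ± 0.11 (adjusted p = 1.35e-05) fasted and -1.51 ± 0.11 (adjusted p = 1.59e-08) fed, and the effects differed by 0.68 ± 0.15 (adjusted p = 0.03). That difference no longer passed without the pancreatic libraries (adjusted p = 0.0755), or without fasted KO replicate 1, fasted WT replicates 1 or 2 or fed WT replicate 3 (adjusted p up to 0.0671). The fast raised it by 1.63 ± 0.11 in KO (adjusted p = 3.29e-09) and 0.95 ± 0.11 in WT livers (adjusted p = 1.17e-06). Of 6 intestine markers, Cdx2 was at 0 in all libraries, and Vil1, Lct, Sis and Alpi stayed at or under 0.649 CPM. The summed level of the list was 3183 to 4387 CPM in fasted KO, 1533 to 4573 CPM in fasted WT, 518 to 562 CPM in fed KO and 233 to 345 CPM in fed WT, nearly all of it Apoa4, which liver also makes.

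Fabp4 (ENSMUSG00000062515; chr3:10204088-10208576, reverse strand), the adipocyte and endothelial fatty-acid-binding protein, was low throughout. Its libraries read 8.60, 9.92, 7.27 and 9.05 CPM in fasted KO, 13.7, 12.8, 8.84 and 11.8 CPM in fasted WT, 9.14, 7.28, 8.37 and 8.69 CPM in fed KO and 8.27, 8.995, 8.90 and 7.35 CPM in fed WT. Of the fasted WT libraries 3 stood over all others, and replicate 3 lay within the range of the fasted KO libraries. The highest, fasted WT replicate 1, was the library with muscle transcripts. It also held the highest Adipoq, Cfd and Plin1 levels of all libraries, at 0.955, 3.34 and 0.478 CPM. These are markers of the adipocyte list below, of which Retn, Car3, Tusc5 and Lipe were highest in other libraries. The genotype value was -0.43 ± 0.13 fasted (adjusted p = 0.0179), and -0.0046 ± 0.13 fed (adjusted p = 0.982; 95% interval -0.29 to 0.28), which turned to 0.22 with library totals. The fasted call was lost with library totals (adjusted p = 0.158), without the 2 pancreatic libraries (adjusted p = 0.122), and without fasted KO replicate 3, fasted WT replicate 1 or fasted WT replicate 2 (adjusted p = 0.0657, 0.0695 and 0.0527).

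Fasted WT exceeded fed WT livers in Fabp4 by 0.49 ± 0.13 (adjusted p = 0.00719), a call lost without the pancreatic libraries (adjusted p = 0.0669). In KO livers the value was 0.06 ± 0.13 (adjusted p = 0.745; 95% interval -0.22 to 0.34), and it turned to -0.02 with library totals. Sums of 10 endothelial markers overlapped in all groups, at 282 to 332 CPM in fasted KO, 305 to 322 CPM in fasted WT, 306 to 332 CPM in fed KO and 308 to 322 CPM in fed WT. The adipocyte list of 8 genes summed to 78.9 to 213 CPM in fasted KO, 152 to 318 CPM in fasted WT, 1290.2 to 1876 CPM in fed KO and 2922 to 3130.1 CPM in fed WT, most of it Car3, which hepatocytes also make. Lep was at 0 in all libraries, Adipoq, Plin1, Retn and Tusc5 did not exceed 0.955 CPM and Cfd did not exceed 3.34 CPM. Adipoq averaged 0.285 ± 0.0579 CPM in fasted KO, 0.480 ± 0.453 CPM in fasted WT, 0.101 ± 0.0497 CPM in fed KO and 0.0645 ± 0.0786 CPM in fed WT livers. Cfd was higher in fasted than in fed WT livers, by 2.24 ± 0.67 (adjusted p = 0.0171). Its libraries ran from 0.714 to 3.34 CPM in fasted WT and from 0 to 0.785 CPM in fed WT, with overlap. Lipe, which liver cells also express, was likewise higher in fasted WT, by 0.51 ± 0.16 (adjusted p = 0.022), and lower in fasted KO than in fasted WT, at -0.50 ± 0.16 (adjusted p = 0.0287). The part of these markers in the Fabp4 results was not tested.

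Fabp5 (ENSMUSG00000027533; chr3:10012548-10016607, forward strand), the epidermal fatty-acid-binding protein, was highest in fed WT livers. Fasted livers held 10.8, 20.5, 13.2 and 9.94 CPM in KO and 7.38, 14.5, 10.2 and 7.39 CPM in WT. Fed livers held 41.2, 24.9, 25.03 and 26.1 CPM in KO and 231, 183, 86.7 and 83.1 CPM in WT. Fed WT replicates 1 and 2 were over the other 2 fed WT libraries by a wide gap, and the lowest fed WT library was still over the highest fed KO library, replicate 1. In the fed state the log2 fold change of KO over WT was -2.32 ± 0.37 (adjusted p = 0.000578), whereas the fasted value was 0.47 ± 0.40 (adjusted p = 0.422; 95% interval -0.40 to 1.34), with overlap of the groups. The effects differed by 2.78 ± 0.54 (adjusted p = 0.0289), a call lost without the pancreatic libraries (adjusted p = 0.0771) and in 6 of the 16 refits without 1 library (fasted KO replicates 2 and 3, fasted WT replicate 1, fed KO replicates 3 and 4 and fed WT replicate 2; adjusted p up to 0.0703).

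Fasting lowered Fabp5, with a log2 fold change of -1.11 ± 0.38 in KO livers (adjusted p = 0.0329) and -3.89 ± 0.41 in WT livers (adjusted p = 1.13e-05). In KO livers the call was lost without a filter on low counts (adjusted p = 0.0598) and in 4 of the 8 refits without 1 library (fasted KO replicates 1, 3 and 4 and fed KO replicate 1; adjusted p up to 0.0977). The annotated pseudogene Fabp5l2 had 0 reads in all libraries. Reads that align to several places stood in a line of their own in the table, so a read shared by Fabp5 and a near copy would be missing from its count.

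The fasting comparisons asked how the fast altered the same genes within a genotype. In fasted KO livers 4 of the 10 genes were higher than in fed KO livers (Cd36, Scarb1, Fabp1 and Fabp2) and 3 lower (Lrp1, Lipc and Fabp5), against 41.4% of all genes called (21.1% higher, 20.3% lower). In WT livers 4 were higher (Vldlr, Cd36, Fabp2 and Fabp4) and the same 3 lower, against 34.5% of all genes (16.2% higher, 18.3% lower). Groups did not overlap for 5 of the 10 genes in KO and 7 in WT livers, against 38.2% and 32.8% of all genes. The genotype effect differed between the feeding states for Fabp1, Fabp2 and Fabp5, and in each the difference was positive. Of all genes 1.7% were called in that comparison, 1.07% positive and 0.633% negative. The other 7 did not pass, with values of -0.89 ± 0.40 for Vldlr, 0.31 ± 0.13 for Lrp1, 0.03 ± 0.12 for Scarb1 (turned to -0.0084 by library totals), -0.19 ± 0.19 for Cd36, -0.18 ± 0.34 for Lpl (turned to 0.04 without fasted WT replicate 1), 0.12 ± 0.12 for Lipc and -0.43 ± 0.18 for Fabp4. These 3 calls were near the threshold. With 1 library left out, 0 or 1 of them remained without fasted KO replicates 1, 2 or 3, fasted WT replicates 1 or 2, fed KO replicate 3 or fed WT replicate 3, and 0 remained without the pancreatic libraries. The values themselves stayed between 0.54 and 0.70 for Fabp1, 0.56 and 0.73 for Fabp2 and 2.48 and 3.02 for Fabp5 when 1 library was left out.

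Levels can be set against each other between genes only per length. On the scale of CPM per kb of exon, Fabp1 averaged 5337 ± 611 in fasted KO, 6297 ± 496 in fasted WT, 4129 ± 515 in fed KO and 7431 ± 335 in fed WT livers (SD, n = 4). In fed WT the order after it was Lipc at 97.6 ± 8.67, Fabp2 at 69.8 ± 3.95, Lrp1 at 51.6 ± 3.25, Fabp5 at 40.9 ± 20.5, Scarb1 at 22.2 ± 1.76, Cd36 at 8.68 ± 1.16, Lpl at 2.30 ± 0.274, Fabp4 at 1.87 ± 0.168 and Vldlr at 0.0717 ± 0.0299 CPM per kb. Of these neighbours the ranges of Lrp1 and Fabp5, and of Fabp5 and Scarb1, overlapped.

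In fasted KO livers Cd36, at 63.3 ± 7.66 CPM per kb, stood next under Fabp2 at 76.05 ± 7.85 CPM per kb, and in fed KO livers it averaged 44.3 ± 8.85 CPM per kb, with a range that overlapped that of Lrp1. In fasted WT livers Cd36 was 6th of the 10, at 14.2 ± 1.35 CPM per kb. Vldlr per length reached 2.51 ± 0.493 CPM per kb in fasted KO livers, where its range overlapped those of Fabp5 and Fabp4, and it was the lowest of the 10 in both WT groups. In fed KO livers it averaged 1.78 ± 0.480 CPM per kb and its range overlapped that of Fabp4, at 1.86 ± 0.176 CPM per kb. Exon length here is the union over annotated transcripts. With the longest transcript instead, the fed WT mean of Scarb1 was 60.97 CPM per kb and that of Lpl 5.86. In fed KO livers the means were then 54.1 for Scarb1, 51.3 for Lrp1, 46.8 for Cd36, 2.24 for Vldlr and 1.98 for Fabp4, so the places of these genes in the order depend on that choice.

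Genes that work with the receptors and lipases were read from lists of which the 10 genes are no members. List genes said to be higher or lower, or to have risen or been raised or lowered, passed an adjusted p of 0.05. Of all genes tested, 28.3% were called between genotypes in the fasted and 30.9% in the fed state. Between feeding states 41.4% were called in KO and 34.5% in WT livers. List counts near these shares show nothing particular to a list. Of 21 tested lipoprotein receptor and endocytosis genes, 2 were higher and 4 lower in KO than in WT livers in the fasted state, and in the fed state 4 were called, all lower. Library totals changed this to 4 higher and 1 lower fasted, and to 9 higher and 2 lower fed. The median log2 fold change of the list was -0.04 fasted and -0.0049 fed. Sort1, which encodes the sorting receptor sortilin, was lower in KO livers by the log2 fold changes -0.75 ± 0.09 fasted and -0.69 ± 0.09 fed. Scarb2, a lysosomal relative of Scarb1, was lower at -0.35 ± 0.08 fasted and -0.40 ± 0.08 fed, calls that were lost with library totals (adjusted p = 0.111 and 0.0722). Lrp2, the endocytic receptor megalin, averaged 0.510 ± 0.118 CPM in fed KO and 2.41 ± 0.837 CPM in fed WT livers, a log2 fold change of -2.22 ± 0.34. Lsr, a lipolysis-stimulated receptor, was higher in fasted KO livers by 0.42 ± 0.11.

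Mylip, whose ubiquitin ligase degrades VLDLR, had values of 0.12 ± 0.12 fasted and -0.03 ± 0.12 fed, with 0.20 for the fed value under library totals, and neither passed (adjusted p = 0.482 and 0.895). Among other receptor genes, Lrp4 rose with the fast by 0.79 ± 0.10 in KO and 0.80 ± 0.10 in WT livers, and Sdc1, a heparan sulfate proteoglycan that binds remnants, rose by 0.94 ± 0.11 in WT livers.

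Of 23 tested lipases and lipase regulators, 3 were higher and 4 lower in KO than in WT livers in the fasted state, and 7 higher and 5 lower in the fed state. Library totals gave 3 higher and 1 lower fasted, and 9 higher and 3 lower fed. Leaving out the pancreatic libraries gave 3 higher and 3 lower fasted, and 5 higher and 4 lower fed. All groups share 1 fit, so the fed counts can move too. The list medians were -0.05 fasted and 0.08 fed. Angptl4, which encodes a secreted inhibitor of lipoprotein lipase, had values of -0.14 ± 0.20 fasted and -0.15 ± 0.20 fed that did not pass (adjusted p = 0.666 and 0.625) and that library totals turned to 0.05 and 0.08. Angptl8, a related gene, had 0.83 ± 0.54 fasted (adjusted p = 0.28) and 0.74 ± 0.49 fed (adjusted p = 0.276), and its fasted value passed when the 8 fasted libraries were fitted alone (adjusted p = 0.0417).

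Lmf1, the endoplasmic reticulum factor that lipoprotein lipase and hepatic lipase need for folding, was lower in KO livers, at -0.46 ± 0.08 fasted (adjusted p = 0.00042) and -0.41 ± 0.08 fed (adjusted p = 0.000891), and the fed call was lost with library totals (adjusted p = 0.0816). Gpihbp1, which holds lipoprotein lipase on capillary walls, had -0.18 ± 0.09 fasted (adjusted p = 0.125) and 0.24 ± 0.09 fed (adjusted p = 0.044). The fed call was lost in 6 of the 8 refits without 1 library (fed KO replicates 1, 3 and 4, fed WT replicates 1, 2 and 4; adjusted p up to 0.139). It was also lost without the pancreatic libraries (adjusted p = 0.0515), with the replicate block (adjusted p = 0.054), with the 8 fed libraries alone (adjusted p = 0.0599) and without a filter on low counts (adjusted p = 0.114). The fasted value passed without fasted KO replicate 1 (adjusted p = 0.0466). Apoa5, an activator of triglyceride hydrolysis, averaged 752 ± 116 CPM in fed KO and 1453 ± 85.1 CPM in fed WT livers, a log2 fold change of -0.95 ± 0.11, and Apoc3, an inhibitor, had -0.48 ± 0.08 in the same comparison. After the fast, Pcsk6 was higher in KO livers by 0.53 ± 0.08.

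**Figure D3:**
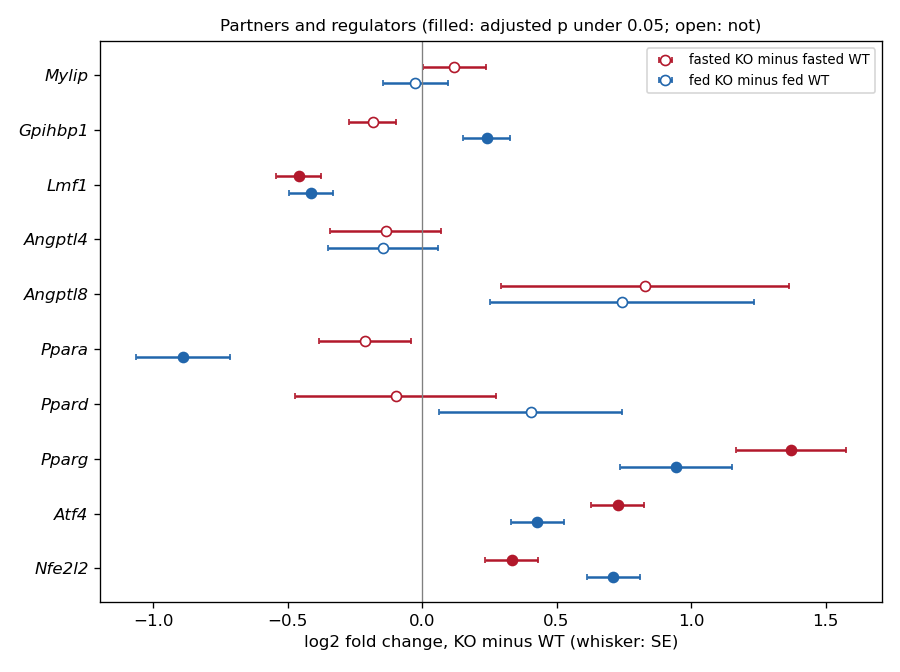
Log2 fold changes of KO minus WT (points; whiskers are SE) in fasted and fed livers for 10 genes that act on the receptors and lipases or regulate them; filled points passed an adjusted p of 0.05. Pparg, Atf4 and Nfe2l2 lie to the right of 0 in both states with filled points, and Lmf1 to the left.

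Beside Cd36, 19 genes of fatty acid transport and activation were tested. In the fasted state 4 were higher and 7 lower in KO than in WT livers, and in the fed state 4 higher and 5 lower, with list medians of -0.14 and -0.03. Library totals gave 6 higher and 5 lower fasted, and 7 higher and 4 lower fed. Acsl4, an acyl-CoA synthetase with a preference for arachidonate, averaged 172 ± 32.3 CPM in fasted KO, 65.5 ± 6.34 CPM in fasted WT, 135 ± 12.7 CPM in fed KO and 73.8 ± 13.7 CPM in fed WT livers, a rise of 1.39 ± 0.14 fasted and 0.87 ± 0.13 fed. Dbi and Scp2, an acyl-CoA binding protein and a sterol carrier protein, were lower in fed KO livers, Dbi at -0.62 ± 0.10 and Scp2 at -0.61 ± 0.09. Slc27a1, the fatty acid transport protein FATP1, averaged 19.97 ± 1.39 CPM in fasted KO, 35.9 ± 1.73 CPM in fasted WT, 4.53 ± 0.450 CPM in fed KO and 4.39 ± 1.01 CPM in fed WT livers. The fast raised it by 2.14 ± 0.12 in KO and 3.03 ± 0.13 in WT livers, and the genotype effects differed by -0.90 ± 0.17 (adjusted p = 0.0142; 0.0633 without the pancreatic libraries). Slc27a2 and Acsl1 rose with the fast in both genotypes, Slc27a2 by 1.15 ± 0.08 in KO and 1.21 ± 0.08 in WT and Acsl1 by 1.07 ± 0.10 in KO and 1.44 ± 0.10 in WT livers.

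Of 10 other intracellular lipid-binding protein genes, 2 had enough reads to be tested, among them Fabp7, the brain fatty-acid-binding protein. The fast raised Fabp7 by 0.79 ± 0.18 in KO and 0.64 ± 0.19 in WT livers.

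Among the transcription factors, Pparg averaged 12.3 ± 1.65 CPM in fasted KO, 4.75 ± 1.21 CPM in fasted WT, 8.13 ± 1.47 CPM in fed KO and 4.25 ± 1.22 CPM in fed WT livers. It rose in KO livers by 1.37 ± 0.20 (adjusted p = 8.65e-05) fasted and 0.94 ± 0.21 (adjusted p = 0.00245) fed, with no overlap. Ppara, the main PPAR of hepatocytes, averaged 114 ± 8.18 CPM in fasted KO, 132 ± 8.25 CPM in fasted WT, 47.3 ± 13.2 CPM in fed KO and 87.7 ± 15.5 CPM in fed WT livers, with a log2 fold change of -0.89 ± 0.17 fed (adjusted p = 0.00142) and a value of -0.21 ± 0.17 fasted (adjusted p = 0.39; 0.049 with the 8 fasted libraries alone). Ppard had -0.10 ± 0.37 fasted, which library totals turned to 0.09, and 0.40 ± 0.34 fed, which was -0.24 without fed KO replicate 2, and neither passed. Atf4, a factor of the integrated stress response, rose by 0.73 ± 0.10 fasted and 0.43 ± 0.10 fed (adjusted p = 2.6e-05 and 0.00286). Nfe2l2, which encodes the oxidative stress factor NRF2, rose by 0.33 ± 0.10 fasted (adjusted p = 0.0154; 0.0571 without fasted WT replicate 3) and 0.71 ± 0.10 fed (adjusted p = 2.83e-05). Of all 26 nuclear receptors and regulators tested, 4 were higher and 3 lower in KO than in WT livers in the fasted state, and 5 higher and 3 lower in the fed state, with list medians of -0.08 and -0.05. In the fasted state library totals gave 8 calls, all higher, and leaving out the pancreatic libraries 5, all higher. The fast lowered Srebf1, a driver of lipogenic genes, at -1.78 ± 0.21 in KO and -1.84 ± 0.20 in WT livers. Among the 10 genes that direction was also called for Lrp1, Lipc and Fabp5 in both genotypes. Of all genes, 20.3% were called lower after the fast in KO and 18.3% in WT livers. A link of Srebf1 to Lrp1, Lipc or Fabp5 was not tested.

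The targets of these factors were counted without the 10 genes. Of 35 tested PPAR target genes, 6 were higher and 4 lower in KO than in WT livers in the fasted state, and 15 higher and 3 lower in the fed state, with median log2 fold changes of -0.02 and 0.19. In the fasted state library totals gave 12 higher and 2 lower, and leaving out the pancreatic libraries 3 higher and 2 lower. The fast gave 28 calls in KO and 30 in WT livers, all higher, with medians of 1.17 and 1.28. Examples are Cidec, a lipid droplet protein gene that averaged 76.9 ± 16.2 CPM in fasted KO and 0.901 ± 0.157 CPM in fed KO livers, and Cpt1a, of mitochondrial fatty acid import, which rose by 1.54 ± 0.08 in KO and 1.28 ± 0.08 in WT livers. Among the 10 genes Cd36 and Fabp2 rose with the fast in both genotypes. Scarb1 was called higher in KO livers only, Vldlr and Fabp4 in WT livers only, and Lpl in neither. Lrp1, Lipc and Fabp5 were lower in both. Fabp1, named above as a known PPAR target, rose in KO livers only. In WT livers its value was negative and did not pass, with all fasted libraries under all fed libraries. The part of the PPARs in these changes was not tested.

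Of 25 tested ATF4 target genes, 20 were higher and 1 lower in KO than in WT livers in the fasted state, and 18 higher and 2 lower in the fed state. Their median log2 fold changes were 1.92 and 1.23, against 0.011 and -0.0083 for all genes. The fast gave 14 higher and 3 lower in KO livers and 4 higher and 5 lower in WT livers. Psat1, of serine synthesis, averaged 22.6 ± 5.38 CPM in fasted KO, 0.834 ± 0.280 CPM in fasted WT, 15.8 ± 1.37 CPM in fed KO and 0.647 ± 0.304 CPM in fed WT livers. The part of ATF4 in the Vldlr result was not tested. Atf5, a related factor, rose by 1.68 ± 0.11 fasted and 2.05 ± 0.12 fed, and Slc3a2, an amino acid transporter chain, by 2.15 ± 0.11 and 1.62 ± 0.11. The lists share 4 genes with each other and were put together from general knowledge with earlier results of these data known.

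The genes with the nearest profiles were found by the mean absolute difference of log2 CPM over the 16 libraries, after each gene's mean was taken off. For Vldlr they were Hrk, which encodes a pro-apoptotic BH3-only protein, at 0.35, Slc22a26, an organic anion transporter gene, at 0.54, and Arhgef2, a guanine nucleotide exchange factor gene, at 0.55, where the median gene differed from Vldlr by 2.05. Hrk read 3.40, 1.98, 4.22 and 4.19 CPM in fasted KO and 0.106, 0.161, 0.179 and 0.258 CPM in fasted WT livers, and 2.04, 3.22, 2.69 and 2.04 CPM in fed KO and 0.0507, 0, 0.0464 and 0.0490 CPM in fed WT livers. For Cd36 they were Ccdc120 and Cyp3a11, both at 0.28, and Cd63 at 0.30, against 1.13 for the median gene. Cyp3a11, a cytochrome P450 of drug metabolism, averaged 5559 ± 1528 CPM in fasted KO, 1456 ± 312 CPM in fasted WT, 4093 ± 943 CPM in fed KO and 1087 ± 57.5 CPM in fed WT livers.

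The nearest profiles to Lpl were those of Npdc1 at 0.22, Ddr1, a collagen receptor kinase gene, at 0.23 and Anxa2, an annexin gene, at 0.25, against 0.64 for the median gene. Anxa2 averaged 33.7 ± 3.14 CPM in fasted KO, 11.8 ± 1.57 CPM in fasted WT, 40.1 ± 8.21 CPM in fed KO and 14.4 ± 1.60 CPM in fed WT livers. Nearest to Fabp2 were Slc7a2, a cationic amino acid transporter gene, at 0.21, and Efna5 and Cntrl, both at 0.23, against 0.77 for the median gene. Slc7a2 averaged 712 ± 103 CPM in fasted KO, 1250.1 ± 53.3 CPM in fasted WT, 280.0 ± 9.40 CPM in fed KO and 547 ± 79.3 CPM in fed WT livers.

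Nearest to Fabp5 were Pnpla5 at 0.41, Gm38070 at 0.43 and Pnpla3 at 0.46, against 1.28 for the median gene. Pnpla3 and Pnpla5 belong to the patatin-like phospholipase family of lipid hydrolases. Pnpla3 read 0.612, 0.766, 0.614 and 0.437 CPM in fed KO and 5.84, 2.68, 0.835 and 1.27 CPM in fed WT livers, and Pnpla5 0.367, 0.460, 0.0768 and 0.291 CPM in fed KO and 2.94, 1.999, 0.278 and 1.13 CPM in fed WT livers. As with Fabp5, fed WT replicates 1 and 2 were over replicates 3 and 4 in both genes. All 3 were close to 0 in fasted libraries, where no Pnpla3 library passed 0.223 CPM. The profiles were chosen for their likeness, and all genes share the same libraries, so the distances are a description.

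**Figure D4:**
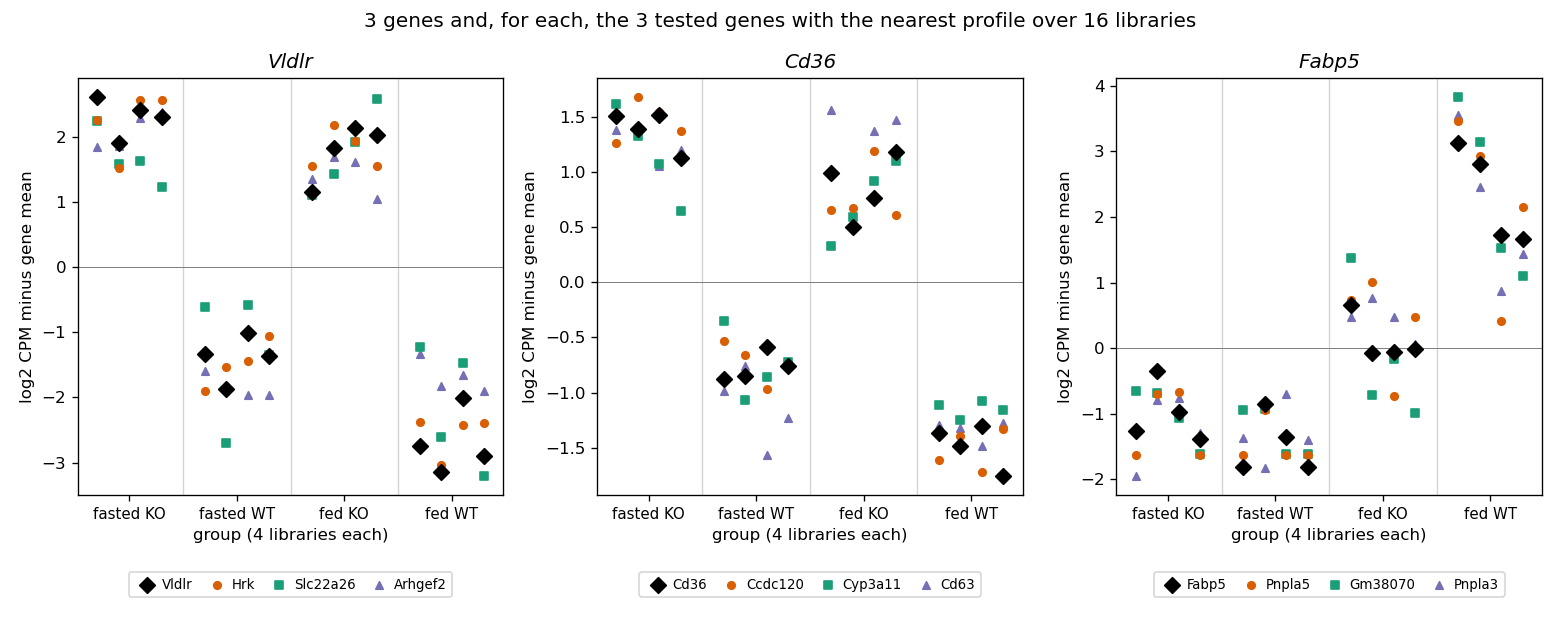
Log2 CPM minus the gene's mean over 16 libraries, by group and library, for Vldlr, Cd36 and Fabp5 (black diamonds) and the 3 tested genes nearest to each (coloured points). Vldlr and Cd36 split by genotype, with all KO libraries over 0 and all WT libraries under it, while fed WT libraries stand over all others for Fabp5.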

How the data were processed

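Read counts per gene were used as deposited by the authors. Per the submitters' processing notes, cutadapt 1.8, STAR 2.5.3a, HTSeq 0.9.1 and the GRCm38 build were used, and per the labels' protocols the libraries were stranded and selected for mRNA. HTSeq's strand mode is not given in the sources used here, nor is the release of the annotation. Libraries held 19.6 to 27.4 M gene reads. Lines of the table that name no gene were left out. The line of reads aligned to several places came to 32.0% to 45.8%. That of reads in no feature came to 2.98% to 4.29% and that of ambiguous reads to 1.05% to 1.65%. The share in the line of reads aligned to several places was lower in every KO library than in every WT library.

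From the counts, genes with low counts were removed by filterByExpr, libraries were scaled by TMM, and 1 coefficient per group was fitted over all 16 libraries with edgeR 4.0.16 (limma 3.58.1, R 4.3.3; robust quasi-likelihood F test). P-values were adjusted by Benjamini-Hochberg over 13905 genes and called at 0.05. Values are log2 fold changes ± SE, and CPM are counts per M gene reads with TMM-scaled library sizes. For likeness, log2 CPM had a prior count of 2. Marker sums were tested by exact two-sided permutation (scipy 1.17.1). Promoters of 250 bases came from RefSeq. The procedure was also tested on simulated data.

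Genes open to naming were the 10 genes, Slc25a47, up to 3 called genes of smallest p per list and comparison, 10 partners and regulators (Ppara, Pparg, Ppard, Atf4, Nfe2l2, Angptl4, Angptl8, Gpihbp1, Lmf1 and Mylip), and the 3 nearest profiles for each of the 10 genes whose group means of log2 CPM spanned over 1. A few further genes that this rule names are not reported here, although the list counts include them. The 10 genes and the lists were chosen with earlier results of these data known. Alternatives were DESeq2 size factors, library totals, testing unfiltered genes, the Wald test of DESeq2 1.42.0, the replicate number as a block, only the 8 libraries compared, no robust estimation, per-length levels by the longest transcript, leaving out each library, and dropping both fasted WT libraries that were richest in pancreatic transcripts. Protein sequences were not used here.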

Additional observations from a re-analysis of the deposited data

Results flagged for a closer look

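Fabp5 in fed KO replicate 1 stood at 41.2 CPM, farther from the other 3 fed KO libraries than Dixon's 95% limit for 4 samples allows. It was the only such library among the 40 gene and group combinations, and chance flags about 1 in 20 groups.

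The effect of genotype differed between feeding states by the edgeR test of the difference for 3 genes. The log2 difference, fasted minus fed, was 0.61 for Fabp1, 0.68 for Fabp2 and 2.78 for Fabp5.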

How the results depend on the processing

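Of 870 refits over the 10 genes and 5 comparisons, 793 kept direction and side of the threshold, 51 lost a call, 9 gained one and 17 turned direction. The number of genes whose genotype effect differed between states was 3, was 0 without the 2 pancreatic libraries, and ran from 0 to 3 when 1 library was left out. The cause was not tested.

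None of the values that turned direction had passed the threshold. With library totals, fed KO over fed WT gave 0.076 for Angptl4, 0.22 for Fabp4, 0.20 for Mylip and 0.054 for Scarb1. Fasted KO over fasted WT gave 0.047 for Angptl4, 0.088 for Ppard and 0.046 for Scarb1, fasted over fed KO gave -0.024 for Fabp4, and the difference of genotype effects -0.0084 for Scarb1. With DESeq2 size factors the fed value of Fabp4 was 0.0017, and with only the 8 fed libraries 0.016. Without the pancreatic libraries, Angptl4 was 0.22 in fasted KO over fasted WT and Lpl 0.17 in fasted WT over fed WT.

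When 1 library was left out, the fed genotype value ran from -0.063 to 0.057 for Fabp4, -0.12 to 0.079 for Mylip and -0.24 to 0.61 for Ppard. The fasted one ran from -0.30 to 0.036 for Angptl4 and -0.034 to 0.12 for Lrp1. Fasted over fed KO ran from -0.0078 to 0.14 for Fabp4, and the difference of genotype effects from -0.36 to 0.040 for Lpl and -0.031 to 0.087 for Scarb1.

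Libraries with the same replicate number deviated from their group means with correlations of -0.174 to 0.251, which gave no sign of pairing but do not settle whether the numbers pair the samples. Replicate 1 held the highest macrophage marker sum of each group, at 615 CPM in fasted KO, 556 CPM in fasted WT, 592 CPM in fed KO and 596 CPM in fed WT. With the replicate number as a block, among the 10 genes and their partners the calls of Lrp1 (adjusted p = 0.0531) and Gpihbp1 (adjusted p = 0.054) in fed livers and of the Fabp1 difference (adjusted p = 0.052) were lost while Vldlr in fasted over fed KO passed.

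Where a call of the 10 genes changed under an alternative, the adjusted p over all alternatives ran as follows. In the fasted genotype comparison it ran from 0.0411 to 0.661 for Fabp1, 0.00232 to 0.158 for Fabp4 and 6.71e-06 to 0.0525 for Lpl, and in the fed one from 0.0237 to 0.823 for Lrp1. In fasted over fed KO it ran from 0.0261 to 0.183 for Vldlr, 0.0123 to 0.172 for Scarb1 and 0.0117 to 0.0977 for Fabp5, and in fasted over fed WT from 0.0187 to 0.193 for Scarb1, 0.0166 to 0.164 for Fabp1 and 0.000854 to 0.0669 for Fabp4. For the difference of genotype effects it ran from 0.00295 to 0.0818 for Fabp1, 0.00509 to 0.0755 for Fabp2 and 9.19e-05 to 0.0771 for Fabp5. Among partner genes it ran from 0.000738 to 0.0571 for Nfe2l2 fasted, and from 0.000835 to 0.139 for Gpihbp1 fed.

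Fed WT libraries held 12 to 25 Vldlr reads each, which limits the precision of that fold change. The line of reads aligned to several places came to 32.0% to 45.8%, and its reads are in no gene's count. Whether a read stands in that line once or several times is not given, so this need not be the share of reads. This share was 32.0% to 39.3% in KO and 40.4% to 45.8% in WT libraries, so it cannot be told apart from genotype. Its part in the genotype results was not tested.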
